A study of Mus musculus with 8 samples.

Results

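The 40 genes described here belong to the ATF4 pathway and the unfolded protein response, and were taken by name from a list of pathway genes, with no threshold on their values. All 40 were found by gene ID among the 24573 genes of the count table. They form 2 arms, 19 genes around ATF4 and 21 genes of the endoplasmic reticulum (ER). RNA was sequenced from proliferating C2C12 cells, a mouse myoblast line, 2 libraries for each of 4 groups. All groups had been transduced with lentivirus and held in puromycin, and carried either a scrambled short hairpin RNA (shRNA) or an shRNA against Brd9, Baf250A or Baf180. Brd9, Baf250A (Arid1a) and Baf180 (Pbrm1) are subunits of 3 forms of the SWI/SNF chromatin remodeller, so the comparisons ask how the 40 genes stand when each form is depleted. Library titles carry 1 hairpin label per target and there is 1 scramble line, so off-target effects, or a peculiarity of that line, cannot be told apart from loss of the target. The labels do not say whether paired libraries were grown apart, so the p-values cover the scatter of these libraries alone and that scatter may be technical.

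ATF4 is a transcription factor whose protein is made when the initiation factor eIF2 is phosphorylated, as happens when amino acids run short or misfolded proteins collect in the ER. It switches on genes for amino acid synthesis, uptake and serine-linked one-carbon metabolism, along with feedback genes that damp the response. The unfolded protein response has 3 sensors in the ER membrane, PERK (Eif2ak3), IRE1 (Ern1) and ATF6, which between them raise chaperones and the machinery that discards misfolded proteins. IRE1 acts by splicing the Xbp1 message, and counts per gene do not separate its spliced and unspliced forms. ATF4 itself is set largely by translation, which RNA counts do not measure.

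The promoter sequences of some members, not of most, carry the elements for which the 2 arms are known. They are shown here, and the group with the ER stress element is followed below. Windows from 250 bases before to 50 after the annotated start were taken from RefSeq on GRCm38.p6, and were matched for 17 ATF4 arm and 18 ER arm members. Slc7a5, Slc7a3, Hyou1, Manf and Atf6 were not matched. The ER stress element (ERSE), searched as CCAAT, then any 9 bases, then CCACG, on both strands, was present in 8 of the 18 ER members and 0 of the 17 ATF4 members. It was present in 0.137% of the 27025 genes with a window, and in 0.119% of all 32851 windows. It binds ATF6 together with the CCAAT factor NF-Y. 1 match per gene is printed 5′ to 3′ on the gene's strand with the element in capitals, and where the capitals begin with CGTGG the element lies on the opposite strand. Hsp90b1 has another match, not shown.
Hspa5 (chr2:34772015-34772053, + strand): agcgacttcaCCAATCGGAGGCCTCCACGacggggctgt
Hsp90b1 (chr10:86705523-86705561, − strand): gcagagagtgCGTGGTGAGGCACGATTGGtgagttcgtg
Calr (chr8:84847065-84847103, − strand): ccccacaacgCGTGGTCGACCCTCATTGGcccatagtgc
Canx (chr11:50325790-50325828, − strand): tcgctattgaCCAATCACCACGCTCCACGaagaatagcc
Dnajc3 (chr14:118937817-118937855, + strand): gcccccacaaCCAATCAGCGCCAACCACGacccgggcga
Pdia6 (chr12:17266481-17266519, + strand): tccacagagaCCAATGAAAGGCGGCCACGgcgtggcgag
Creld2 (chr15:88819510-88819548, + strand): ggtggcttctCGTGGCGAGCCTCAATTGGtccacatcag
Syvn1 (chr19:6046522-6046560, + strand): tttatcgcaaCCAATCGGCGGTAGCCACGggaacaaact

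The element bound by ATF4 with C/EBP proteins (CARE), searched as TGATGNAA on both strands, was present in 5 of the 17 ATF4 members and 1 of the 18 ER members. It was found in 4.51% of all genes with a window, and in 3.97% of all windows. No CARE match overlapped an ERSE match among the members. In Trib3 the match began 14 bases after the annotated start, and the other 5 lay before it. The motif TGACGTGG, a binding sequence of XBP1 and ATF6, was in no member's window and in 0.676% of all windows. These are matches of letters in a window, not measured binding. The CARE matches before the start are shown in capitals, as TTGCATCA where the element lies on the opposite strand.
Chac1 (chr2:119351037-119351068, + strand): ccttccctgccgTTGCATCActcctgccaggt
Asns (chr6:7693213-7693244, − strand): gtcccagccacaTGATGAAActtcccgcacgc
Nupr1 (chr7:126625561-126625592, − strand): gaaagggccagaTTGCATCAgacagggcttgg
Vldlr (chr19:27216808-27216839, + strand): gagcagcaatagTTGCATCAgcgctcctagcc
Herpud1 (chr8:94386305-94386336, + strand): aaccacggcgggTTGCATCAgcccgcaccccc

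Library totals ran from 17763062 to 20400855 estimated counts, and 12420 genes were tested. Each targeted gene was lowest in the libraries labelled with its shRNA, but the depth of the fall differed. Pbrm1 had 3.77 and 4.69 CPM (counts scaled to library size with TMM) in the Baf180 libraries against 49.2 and 56.0 in scramble. Brd9 had 7.61 and 7.07 CPM in the Brd9 libraries against 40.3 and 36.8 in scramble. Arid1a fell least, with 67.1 and 64.2 CPM in the Baf250A libraries against 159 and 157 in scramble. The 4 myoblast markers Myod1, Myf5, Des and Cdh15 were counted in all libraries, and their summed level, mostly Des, differed between the groups: 1301 to 1319 CPM in scramble, 987 to 1365 in Brd9, 706 to 914 in Baf250A and 1867 to 2765 in Baf180 libraries. Myf5 went against the sum in Baf180 libraries, at 7.13 and 10.7 CPM against 22.2 and 28 in scramble (log2 fold change −1.49, adjusted p = 0.00384), while Myod1, Des and Cdh15 were called higher. In Baf250A knockdown Cdh15 (−2.46) and Myf5 (−0.86) were called lower. These are values of the main fit. With the offsets described below, Cdh15 stood at −2.04 in Baf250A and Myf5 at −0.82 in Baf180 knockdown. Offset-adjusted Myf5 levels were 23.6 and 28.6 CPM in scramble, 9.12 and 8.87 in Baf250A and 13.5 and 15.8 in Baf180. The part of these markers in the results below was not tested. Sums of 3 endothelial and 3 epithelial markers reached at most 0.436 and 0.273 CPM, with Epcam at 0 throughout. The 3 leukocyte markers summed to 1.55 to 2.61 CPM, with Adgre1 at 0 throughout, and Cd68 made up nearly all of that sum. Transcript GC content also separated the libraries. In the tenth of genes with the lowest GC content the median log2 deviation from the mean library was 0.48 and 1.06 in the Baf250A libraries, −1.10 and −0.69 in Baf180, 0.44 and 0.05 in Brd9 and −0.18 and −0.01 in scramble. In the tenth with the highest GC content this median was −0.21 and −0.53 in the Baf250A libraries and 0.7 and 0.31 in Baf180. There the Brd9 libraries had −0.23 and 0.02, and scramble 0.01 and 0.04. Fold changes of called members are therefore given from 2 fits. The main one scales libraries by TMM, and the other adds per-library offsets that level out any dependence on GC content and gene length, including a real change in expression that follows either. A gene is called at an adjusted p below 0.05.

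In scramble cells the members spanned a wide range of levels per length. Calr, the calcium-binding lectin chaperone calreticulin, was highest at 801 CPM per kilobase. The serine synthesis enzyme Phgdh followed at 354 and the mitochondrial serine hydroxymethyltransferase Shmt2 at 264, then Atf4 at 208, the chaperone BiP (Hspa5) at 205 and its Hsp90 partner Hsp90b1 at 200. The sensors Ern1, Eif2ak3 and Atf6 stood at 4.06, 4.46 and 7.41 CPM per kilobase. Vldlr, a lipoprotein receptor, was lowest of the tested members at 0.0900. Slc7a3, a cationic amino acid transporter, had 0 to 9 counts in each library and did not pass the filter on low counts, so 18 ATF4 arm and 21 ER arm members were tested. Median GC content was 55.2% in the ATF4 arm and 50.0% in the ER arm.

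In Baf250A knockdown more ATF4 arm members were called lower than higher. With TMM 8 of 18 members were called lower and 0 higher, where 14.0% of all genes were called lower and 15.5% higher, and 29.5% either way. The median log2 fold change was −0.48, against −0.02 over all genes. At an unadjusted p below 0.05, 11 were lower and 2 higher, and DESeq2 called 10 lower and 0 higher. With the offsets 9 were lower and 4 higher (35.5% of all genes called), and all 8 lower calls of the TMM fit were among the 9.

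Of 4 members grouped for description as feedback genes, Chac1 and Trib3 fell in Baf250A knockdown, with the largest falls of the arm. Ddit4 (0.33, offsets 0.75) and Sesn2 (−0.11, offsets 0.29) were called only with the offsets, as higher. Chac1, an enzyme that degrades glutathione (chromosome 2, 119351242 to 119354326), stood at 24.9 and 26.2 CPM in scramble, 19.3 and 21.7 in Brd9, 6.69 and 6.09 in Baf250A and 32.8 and 25.7 in Baf180 libraries. Both Baf250A libraries lay far below the other 6. The log2 fold change against scramble was −2.00 (SE 0.18, adjusted p = 0.00014), and −1.59 with the offsets (SE 0.11, adjusted p = 5.34e-06). Trib3, a pseudokinase that restrains ATF4 (chromosome 2, 152337425 to 152344060), had 15.3 and 13.6 CPM in scramble, 5.67 and 9.48 in Brd9, 3.97 and 2.53 in Baf250A and 10.7 and 8.13 in Baf180. All 6 knockdown libraries were below both scramble libraries, and the Baf250A pair was lowest. Its log2 fold change in Baf250A knockdown was −2.15 (SE 0.31, adjusted p = 0.00171), with the offsets −1.75 (SE 0.20, adjusted p = 0.000125). The calls of Chac1 and Trib3 were made in every fit that left out 1 of the 4 libraries.

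Amino acid genes moved down by smaller amounts. Asns, the asparagine synthetase, had 207 and 209 CPM in scramble, 136 and 178 in Brd9, 137 and 120 in Baf250A and 274 and 226 in Baf180, and fell in Baf250A knockdown by 0.69 on the log2 scale (SE 0.17, adjusted p = 0.0152, offsets −0.67). The Baf180 libraries were the only pair above scramble. Slc7a5, the light chain of the large neutral amino acid transporter, had 292 and 303 CPM in scramble, 169 and 223 in Brd9, 195 and 166 in Baf250A and 328 and 267 in Baf180. Its log2 fold change in Baf250A knockdown was −0.72 (SE 0.17, adjusted p = 0.0153, offsets −0.40). Its heavy chain Slc3a2 was not called (−0.46). Both Baf250A libraries lay below both scramble libraries for each of these genes. Over the arm these groups did not overlap for 15 of 18 members, beside 75.8% of all genes.

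Within the serine and one-carbon pathway, 3 of 5 members were called lower in Baf250A knockdown. Psph, the phosphatase of the last step of serine synthesis, had 50.3 and 54.6 CPM in scramble, 37.6 and 44.8 in Brd9, 33.3 and 31.1 in Baf250A and 40.7 and 30.4 in Baf180 (log2 fold change in Baf250A −0.70, SE 0.17, adjusted p = 0.0171, offsets −0.40). Psat1, its aminotransferase, had 401 and 395 CPM in scramble, 280 and 327 in Brd9, 311 and 290 in Baf250A and 298 and 299 in Baf180 (−0.40, SE 0.13, adjusted p = 0.0394, offsets −0.39). Both genes had every knockdown library below both scramble libraries. Mthfd2, the mitochondrial folate dehydrogenase, had 122 and 112 CPM in scramble, 86.2 and 92.3 in Brd9, 83.1 and 82.2 in Baf250A and 95.5 and 94.9 in Baf180 (−0.50, SE 0.12, adjusted p = 0.0153, offsets −0.43). Shmt2 (−0.61, adjusted p = 0.0532) and Phgdh (−0.63, adjusted p = 0.0599) were not called by edgeR with TMM, and with the offsets stood at −0.25 and −0.24. The calls of Asns, Psph and Slc7a5 were lost without either scramble library or Baf250A replicate 2 (adjusted p up to 0.138, 0.128 and 0.14), and those of Psat1 and Mthfd2 without any 1 of the 4 libraries (up to 0.32 and 0.14).

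Gdf15, a secreted stress hormone of the TGF-beta family (chromosome 8, 70629393 to 70632470), had the largest log2 difference between any 2 groups among the tested members. It had 14.4 and 11.9 CPM in scramble, 30 and 35.1 in Brd9, 8.80 and 5.52 in Baf250A and 78.5 and 57.7 in Baf180 libraries. The 4 groups did not overlap, with Baf250A lowest, then scramble, Brd9 and Baf180. Against scramble the log2 fold change was 2.37 in Baf180 (SE 0.25, adjusted p = 0.000293, offsets 1.86) and 1.31 in Brd9 knockdown (SE 0.24, adjusted p = 0.0111, offsets 1.56). In Baf250A knockdown it was −0.88 (SE 0.25, adjusted p = 0.0299, offsets −0.44 with adjusted p = 0.038). The Baf180 call was made in every fit with 1 library left out. The Brd9 call was lost without either scramble library (adjusted p up to 0.127). The Baf250A call was lost without either scramble library or Baf250A replicate 2 (up to 0.23), and without the latter the log2 fold change was −0.53. The 3 comparisons share the scramble libraries and are not independent.

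**Figure D1:**
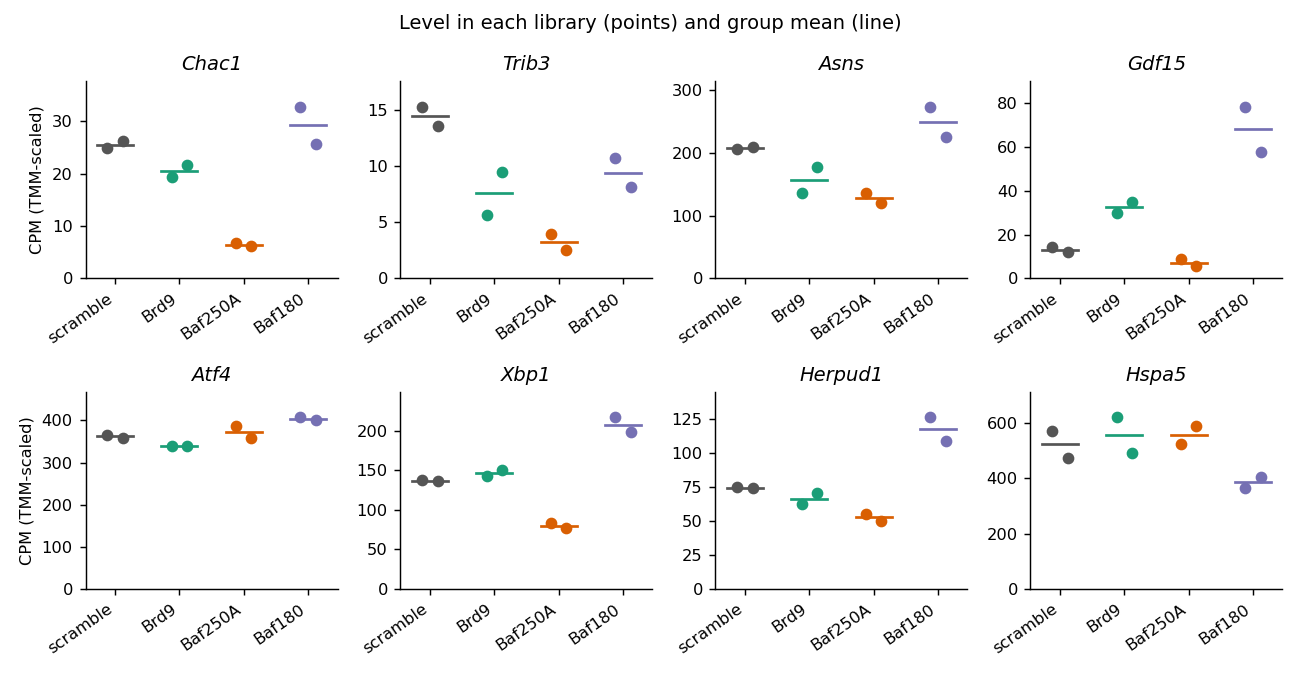
TMM-scaled level (CPM, y axis from 0) of 8 members in each of the 8 libraries, as points, with the mean of each group as a line. Chac1 and Xbp1 are lowest in both Baf250A libraries, Gdf15 separates all 4 groups, and Atf4 lies between 339 and 407 CPM throughout.

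The regulators of the arm gave no call in Baf250A or Brd9 knockdown with TMM, except Nupr1 in the latter. Atf4 (chromosome 15, 80255184 to 80257545) had 365 and 359 CPM in scramble, 340 and 339 in Brd9, 386 and 359 in Baf250A and 407 and 401 in Baf180. Its log2 fold changes against scramble were −0.09, 0.04 and 0.16 in Brd9, Baf250A and Baf180 knockdown, none called, and 0.10, 0.36 and −0.11 with the offsets, of which 0.36 was called (adjusted p = 0.0198). Ddit3, the pro-apoptotic factor CHOP, had 13.8 and 11.4 CPM in scramble, 11.5 and 13.6 in Brd9, 12.5 and 11.9 in Baf250A and 18 and 16.3 in Baf180, with no call against scramble in either fit. Cebpg, a C/EBP partner of ATF4, had 12.7 and 12.9 CPM in scramble, 22.0 and 15.9 in Brd9, 13.2 and 16.0 in Baf250A and 7.77 and 9.88 in Baf180. Its GC content is low at 43.3%. Its log2 fold change in Baf250A knockdown was 0.18 with TMM and −0.41 with the offsets, called only in the latter (adjusted p = 0.0234).

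Brd9 knockdown had 4 of 18 ATF4 arm members called higher with TMM and 0 lower, where 6.45% of all genes were called higher and 3.57% lower, 10.0% in all. The median was −0.33, so most members lay below 0 while the calls were above it. At an unadjusted p below 0.05 there were 5 higher and 7 lower, DESeq2 called 4 higher and 5 lower, and the offsets 5 higher and 6 lower (28.2% of all genes called). The lower calls of the offsets were Trib3, Shmt2, Slc7a5, Psat1, Mthfd2 and Phgdh, at −0.76 to −0.35. Shmt2 had 591 and 626 CPM in scramble, 319 and 452 in Brd9, 447 and 348 in Baf250A and 485 and 362 in Baf180, and in Brd9 knockdown a log2 fold change of −0.66 (SE 0.21, adjusted p = 0.076) with TMM and −0.49 (SE 0.10, adjusted p = 0.0073) with the offsets. Brd9 replicate 1 was the lowest of the 8 libraries for Shmt2 and for Psat1.

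Higher in Brd9 knockdown were Vldlr, Gdf15, Nupr1 and Ddit4. Vldlr had 12 and 14 counts in scramble, 102 and 52 in Brd9, 26 and 31 in Baf250A and 35 and 45 in Baf180, a log2 fold change of 2.36 in Brd9 knockdown (SE 0.38, adjusted p = 0.00606, offsets 2.03). All knockdown libraries exceeded both scramble libraries. Nupr1, a small stress-induced chromatin protein, had 10.8 and 8.73 CPM in scramble, 15.9 and 15.5 in Brd9, 11.9 and 13.3 in Baf250A and 19.2 and 19.2 in Baf180 (Brd9 0.69, SE 0.18, adjusted p = 0.0434, offsets 0.97). Ddit4, an inhibitor of mTORC1 known as REDD1, had 38.7 and 36.9 CPM in scramble, 52.2 and 55.3 in Brd9, 49.8 and 45.0 in Baf250A and 67.9 and 62.7 in Baf180 (Brd9 0.51, SE 0.13, adjusted p = 0.0428, offsets 0.74). For both genes every knockdown library lay above both scramble libraries. Brd9 and scramble did not overlap for 17 of 18 members of the arm, beside 65% of all genes. Without either scramble library the calls of Vldlr and Gdf15 were lost (adjusted p up to 0.0591 and 0.127), and those of Nupr1 and Ddit4 without any 1 library (up to 0.286 and 0.274).

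In Baf180 knockdown Gdf15, Vldlr, Nupr1, Ddit4 and Sesn2 were higher and Psph and Psat1 lower with TMM. These 5 and 2 of 18 members, 38.9% in all, stand near the share of all genes called (17.2% higher, 17.0% lower, 34.2% either way), and the median was 0.16. With the offsets 5 were higher and 6 lower (38.3% of all genes called), and the median was −0.13. The 5 higher members were called in both fits. Sesn2, a leucine sensor that restrains mTORC1, had 40.4 and 40.6 CPM in scramble, 40.9 and 48.8 in Brd9, 41.6 and 33.1 in Baf250A and 71.8 and 61.0 in Baf180 (log2 fold change 0.71, SE 0.17, adjusted p = 0.0119, offsets 0.25). Both Baf180 libraries stood above the other 6. Ddit4 stood at 0.79 (SE 0.13, adjusted p = 0.0031, offsets 0.37), Nupr1 at 0.98 (SE 0.18, adjusted p = 0.00455, offsets 0.72) and Vldlr at 1.59 (SE 0.40, adjusted p = 0.016, offsets 1.94). Gdf15 and Ddit4 were called with each library left out. Nupr1 lost its call without scramble replicate 2 (adjusted p = 0.0539), Vldlr without either scramble library (up to 0.0948) and Sesn2 without either of these or Baf180 replicate 1 (up to 0.0799).

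Serine synthesis genes made up the lower calls in Baf180 knockdown. Psph fell by 0.56 on the log2 scale (SE 0.17, adjusted p = 0.034, offsets −0.81) and Psat1 by 0.42 (SE 0.13, adjusted p = 0.032), a call that the offsets ended (−0.29, adjusted p = 0.0612). The Psph call was lost without either scramble library or Baf180 replicate 2 (adjusted p up to 0.178), without the latter at −0.36, and the Psat1 call without any 1 library (up to 0.165). With the offsets Shmt2 (−0.94, adjusted p = 0.00011), Phgdh (−0.79, adjusted p = 0.000344), Trib3 (−1.06, adjusted p = 0.00148), Slc7a5 (−0.36, adjusted p = 0.0109) and Mthfd2 (−0.25, adjusted p = 0.0383) were also lower. With TMM these 5 stood between −0.62 and −0.00, and none was called. Their GC content was 56.3 to 58.2%, with Mthfd2 at 49.6%.

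**Figure D2:**
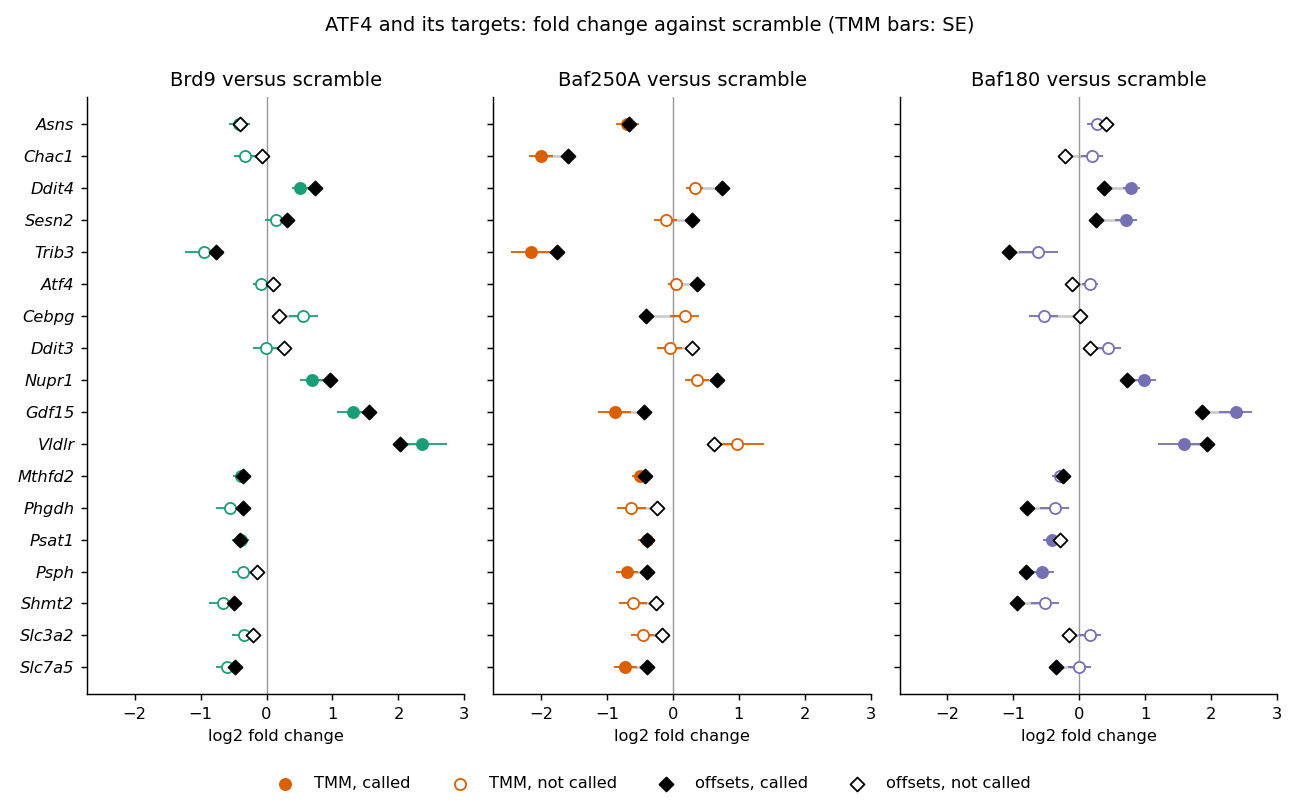
Log2 fold change against scramble (x axis) of the 18 tested ATF4 arm members (rows) in each knockdown, with circles and SE bars for TMM scaling, diamonds for the fit with GC and length offsets, and filled symbols where the adjusted p is below 0.05. Chac1 and Trib3 are farthest left in Baf250A knockdown, and Gdf15 and Vldlr farthest right in Baf180 and Brd9 knockdown.

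With TMM, calls in the ER arm went in both directions in Baf250A and Baf180 knockdown. In Baf250A knockdown 2 of 21 members were called higher and 4 lower, 28.6%, beside 29.5% of all genes, with a median of −0.19. With the offsets 1 was higher and 6 lower there, 33.3% beside 35.5% of all genes. Adding a block for replicate number to the offsets left 0 higher and 5 lower (1 and 6 at an unadjusted p below 0.05). In Brd9 knockdown 1 was called higher and 0 lower, beside 10.0% of all genes, with a median of 0.09. At an unadjusted p below 0.05 the Brd9 counts were 2 and 2, by DESeq2 1 and 1, and with the offsets 2 and 2. In Baf180 knockdown 4 were higher and 2 lower, 28.6% beside 34.2% of all genes. DESeq2 called 5 and 4 there, upper-quartile scaling 4 and 5, testing without a filter 5 and 4, and the 4 libraries alone 5 and 5. With the offsets 8 were higher and 3 lower, beside 38.3% of all genes. In each of these comparisons the TMM share of the arm did not exceed that of all genes.

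Among the sensors and their transcription factor, Xbp1 was called in 2 comparisons with scramble. Xbp1 (chromosome 11, 5520641 to 5525993) had 138 and 136 CPM in scramble, 143 and 151 in Brd9, 83.5 and 76.6 in Baf250A and 217 and 199 in Baf180 libraries. The Baf250A pair lay below all other libraries and the Baf180 pair above. Its log2 fold change was −0.78 in Baf250A knockdown (SE 0.12, adjusted p = 0.00258, offsets −0.54) and 0.60 in Baf180 knockdown (SE 0.12, adjusted p = 0.0071, offsets 0.39). The Baf250A call was made with each library left out, and the Baf180 call was lost without either scramble library (adjusted p up to 0.0707). In Brd9 knockdown Xbp1 was not called (0.10).

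Eif2ak3, the kinase PERK, had 21.9 and 18.4 CPM in scramble, 25.2 and 19.1 in Brd9, 13.4 and 13.1 in Baf250A and 15.9 and 18.4 in Baf180. It was called lower in Baf250A knockdown with TMM (−0.61, SE 0.19, adjusted p = 0.0425), not with the offsets (−0.38, adjusted p = 0.15), and not without any 1 of the 4 libraries (up to 0.237). In Baf180 knockdown Eif2ak3 stood at −0.23 with TMM and −0.53 with the offsets, called only in the latter (adjusted p = 0.0476). Ern1, the kinase and nuclease IRE1, had 14.6 and 17.7 CPM in scramble, 16.8 and 17.5 in Brd9, 14.5 and 16.9 in Baf250A and 20.5 and 20.5 in Baf180, and was called in no comparison with scramble in either fit. Atf6 had 54.6 and 56.0 CPM in scramble, 70.8 and 52.3 in Brd9, 49.0 and 54.3 in Baf250A and 37.3 and 44.0 in Baf180. It was not called against scramble with TMM, and with the offsets was lower in Baf250A knockdown (−0.52, adjusted p = 0.0023). Both Baf180 libraries lay above scramble for Ern1 and below it for Atf6, and both Baf250A libraries lay below it for Atf6.

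Of 4 members that act in ER-associated degradation, 3 were called higher in Baf180 knockdown with TMM and 3 with the offsets, Herpud1 and Sel1l in both, beside 17.2% and 19.5% of all genes called higher. Herpud1, a membrane organiser of the degradation complex (chromosome 8, 94386429 to 94395371), had 74.6 and 74.2 CPM in scramble, 62.4 and 70.3 in Brd9, 55.3 and 50.2 in Baf250A and 126 and 109 in Baf180. Its order, Baf180 above scramble and Baf250A below, was that of Xbp1. The log2 fold change was 0.66 in Baf180 (SE 0.13, adjusted p = 0.00723, offsets 0.45) and −0.50 in Baf250A knockdown (SE 0.14, adjusted p = 0.0245, offsets −0.23). Sel1l, the adaptor of the ubiquitin ligase, had 81.2 and 75.5 CPM in scramble, 110 and 99.6 in Brd9, 72.5 and 84.8 in Baf250A and 104 and 114 in Baf180 (Baf180 0.47, SE 0.14, adjusted p = 0.0272, offsets 0.69). Syvn1, that ligase, known as HRD1, had 72.1 and 73.2 CPM in scramble, 75.7 and 92.1 in Brd9, 65.9 and 54.3 in Baf250A and 118 and 107 in Baf180 (Baf180 0.63, SE 0.15, adjusted p = 0.0132), and the offsets ended its call (0.22, adjusted p = 0.062). With the offsets Syvn1 was instead called higher in Brd9 knockdown (0.34).

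The fourth degradation member, Edem1, a mannosidase-like protein, had 49.3 and 47.3 CPM in scramble, 52.6 and 46.2 in Brd9, 44.7 and 48.3 in Baf250A and 60.5 and 65.1 in Baf180. In Baf180 knockdown it stood at 0.38 with TMM (adjusted p = 0.0535) and 0.72 with the offsets (adjusted p = 0.00056). For all 4 degradation genes both Baf180 libraries lay above both scramble libraries. Baf180 and scramble did not overlap, in either direction, for 15 of 18 ATF4 arm and 14 of 21 ER arm members, beside 72.1% of all genes. The Baf180 calls were lost without either scramble library for Herpud1 (adjusted p up to 0.0656), without either of these or Baf180 replicate 1 for Syvn1 (up to 0.0886) and without any 1 library for Sel1l (up to 0.18). The Baf250A call of Herpud1 was lost without any 1 library (up to 0.226).

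Among the chaperones BiP was called in no comparison with scramble. Hspa5 (chromosome 2, 34772090 to 34776529) had 571 and 474 CPM in scramble, 619 and 491 in Brd9, 523 and 590 in Baf250A and 366 and 405 in Baf180. The Baf180 pair was lowest, with a log2 fold change of −0.44 that was not called (offsets −0.19). Hsp90b1, also known as GRP94, had 609 and 492 CPM in scramble, 658 and 530 in Brd9, 631 and 819 in Baf250A and 294 and 303 in Baf180, and fell in Baf180 knockdown by 0.88 on the log2 scale (SE 0.18, adjusted p = 0.0068, offsets −0.37 with adjusted p = 0.032). That call was lost without scramble replicate 1 (adjusted p = 0.0599). Hyou1, a large chaperone of the Hsp70 family, had 265 and 239 CPM in scramble, 196 and 235 in Brd9, 194 and 158 in Baf250A and 292 and 252 in Baf180. It was called lower in Baf250A knockdown (−0.51, SE 0.16, adjusted p = 0.0371, offsets −0.32), a call lost without either scramble library or Baf250A replicate 2 (up to 0.334), without the latter at −0.32.

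Of the lectin chaperones, Calr had 1650 and 1462 CPM in scramble, 1399 and 1657 in Brd9, 1328 and 1167 in Baf250A and 2333 and 1925 in Baf180, a log2 fold change in Baf180 of 0.45 with TMM (adjusted p = 0.0509) and 0.47 with the offsets (adjusted p = 0.0154). Canx, its membrane-bound relative calnexin, had 374 and 319 CPM in scramble, 446 and 318 in Brd9, 290 and 393 in Baf250A and 200 and 236 in Baf180. With TMM it was called lower in Baf180 knockdown (−0.67, SE 0.21, adjusted p = 0.0339), which the offsets ended (−0.02). That call was also lost without either scramble library or Baf180 replicate 1 (adjusted p up to 0.181). With the offsets Canx was instead lower in Baf250A knockdown (−0.72, adjusted p = 0.000576), where TMM gave −0.02. The transcripts differ in GC content, 50.0% for Calr and 42.2% for Canx.

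The co-chaperones of BiP held the 2 higher calls of Baf250A knockdown. Dnajb9, a J-domain protein also known as ERdj4, had 5.62 and 5.2 CPM in scramble, 12.3 and 9.06 in Brd9, 10.5 and 14.7 in Baf250A and 4.64 and 5.89 in Baf180. Both Brd9 and both Baf250A libraries lay above scramble, with log2 fold changes of 0.98 (SE 0.25, adjusted p = 0.0421, offsets 0.71) and 1.21 (SE 0.25, adjusted p = 0.00874, offsets 0.43). The Brd9 call was lost without either scramble library or Brd9 replicate 1 (adjusted p up to 0.27), and the Baf250A call without either scramble library or Baf250A replicate 2 (up to 0.0613). In Baf180 knockdown Dnajb9 stood at −0.04 with TMM and 0.70 with the offsets (adjusted p = 0.00647), and its transcript has the lowest GC content of the members, 40.6%. Dnajc3, a co-chaperone known as p58IPK, had 38.7 and 35.9 CPM in scramble, 60.2 and 38.8 in Brd9, 54.0 and 71.8 in Baf250A and 23.4 and 26.3 in Baf180. Its call in Baf250A knockdown (0.75, SE 0.22, adjusted p = 0.0317) ended with the offsets (0.12) and without either scramble library or Baf250A replicate 2 (up to 0.163).

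Sdf2l1, a component of the BiP cycle, had 25.3 and 25.8 CPM in scramble, 14.6 and 18.3 in Brd9, 22.5 and 19.5 in Baf250A and 26.7 and 22.7 in Baf180. In Brd9 knockdown it stood at −0.64 with TMM (adjusted p = 0.0525) and −0.36 with the offsets (adjusted p = 0.03). Manf, a secreted ER stress protein, had 229 and 208 CPM in scramble, 155 and 177 in Brd9, 196 and 180 in Baf250A and 231 and 196 in Baf180, and stood in Brd9 knockdown at −0.40 (adjusted p = 0.1) and −0.33 with the offsets (adjusted p = 0.0342). For both genes the Brd9 libraries were the lowest pair. The J-domain protein Dnajb11, the disulfide isomerases Pdia4 and Pdia6, and Creld2, a protein induced by ER stress, had log2 fold changes between −0.29 and 0.34 in the 3 comparisons and no TMM call. With the offsets Pdia4 (0.29) and Pdia6 (0.25) were called higher in Baf180 knockdown.

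**Figure D3:**
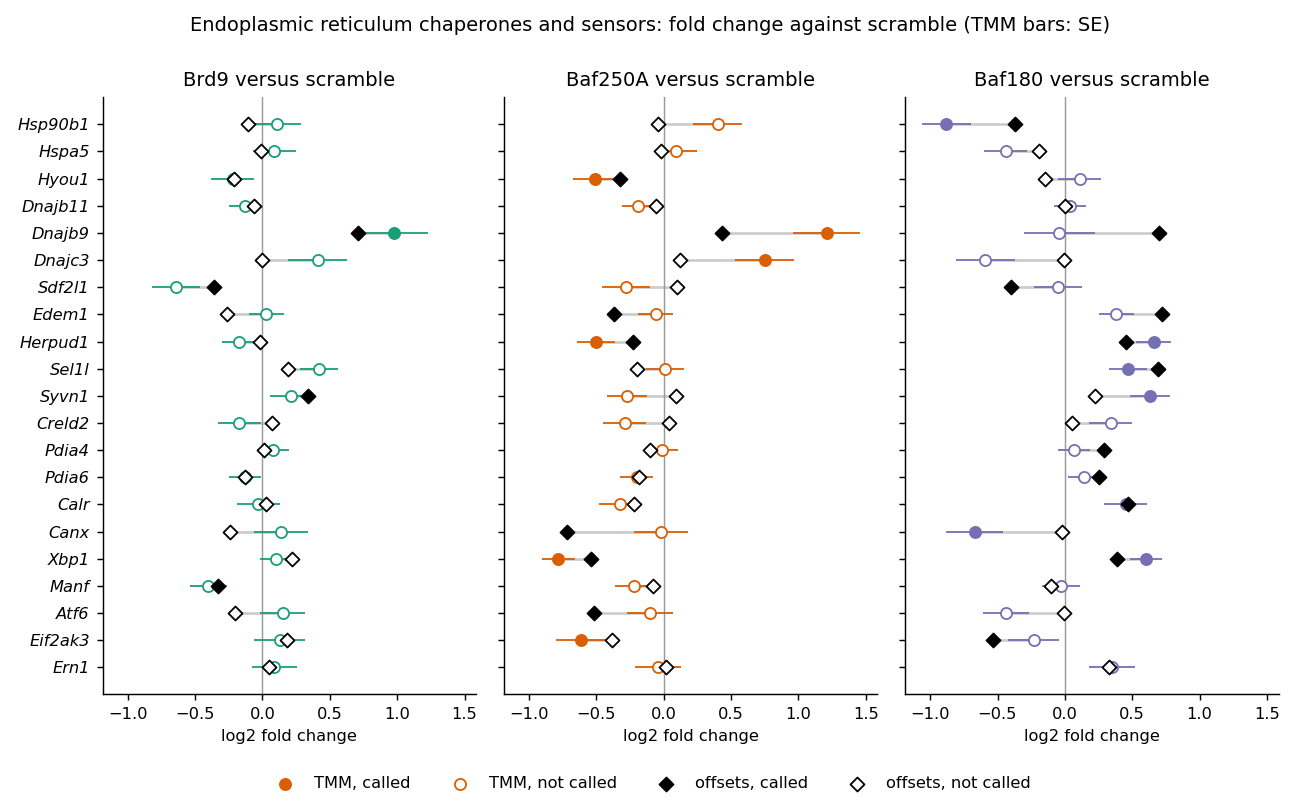
Log2 fold change against scramble (x axis) of the 21 ER arm members (rows) in each knockdown, with circles and SE bars for TMM scaling, diamonds for the fit with GC and length offsets, and filled symbols where the adjusted p is below 0.05. Xbp1 and Herpud1 lie left of 0 in Baf250A and right of 0 in Baf180 knockdown in both fits, while Dnajb9, Canx and Dnajc3 shift most between the fits in Baf250A and Baf180 knockdown.

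The 8 members that share an ERSE did not move together under TMM scaling. In Baf180 knockdown their log2 fold changes ran from −0.88 (Hsp90b1) to 0.63 (Syvn1), and in Baf250A knockdown from −0.32 (Calr) to 0.75 (Dnajc3). Those with the lowest GC content, Canx, Dnajc3 and Hsp90b1 at 42.2 to 43.8%, had the lowest values in Baf180 knockdown. Syvn1 at 57.6% had the highest. Across the 21 ER arm members, which share the libraries and are not independent, Spearman's rho between fold change and GC content was −0.83 in Baf250A, 0.50 in Baf180 and −0.52 in Brd9 knockdown. With the offsets these were 0.02, −0.21 and 0.11, as the offsets are built to remove that trend. The ERSE members then ran from −0.37 to 0.47 in Baf180, from −0.72 to 0.12 in Baf250A and from −0.24 to 0.34 in Brd9 knockdown. In the ATF4 arm (18 members) the TMM values of rho were −0.42, 0.21 and −0.08.

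**Figure D4:**
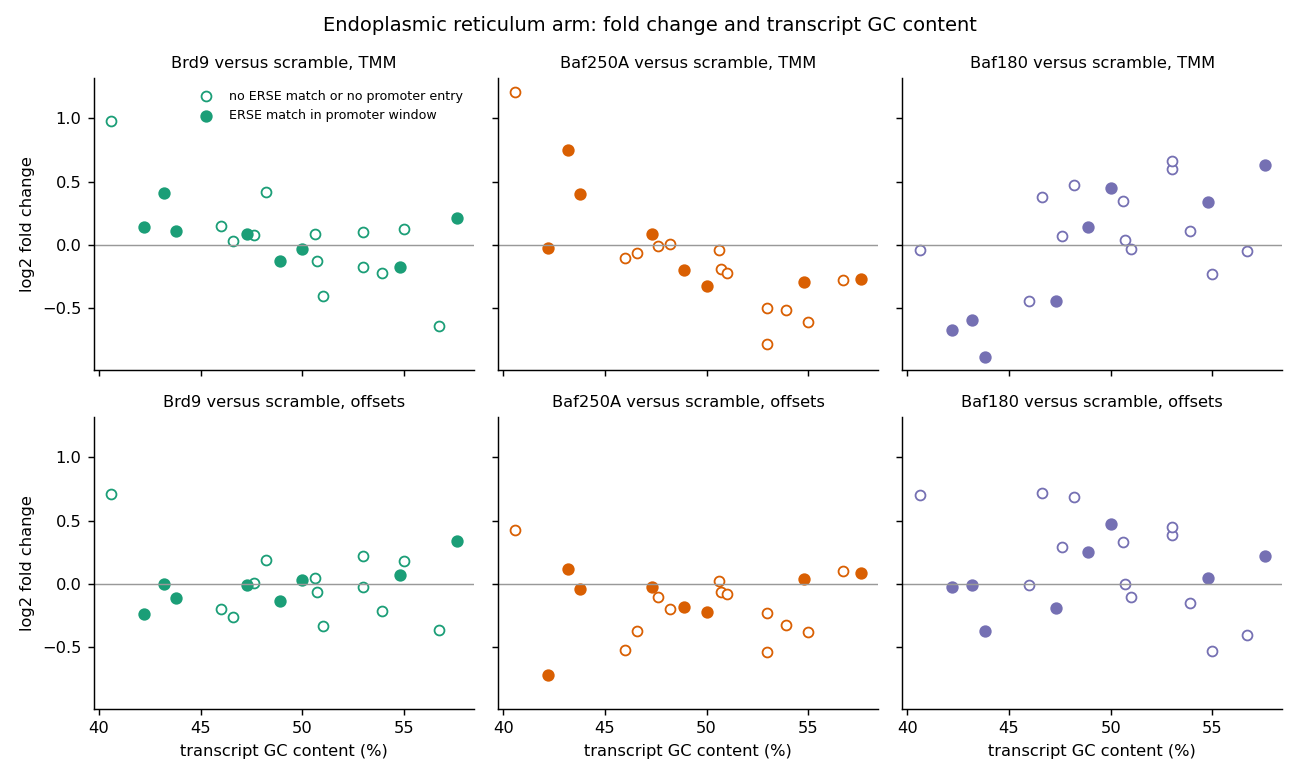
Log2 fold change against scramble (y axis) of the 21 ER arm members against transcript GC content (x axis, percent), with TMM scaling in the upper row and GC and length offsets in the lower row, and filled points for the 8 members with an ERSE match. With TMM the points fall with GC content in Baf250A (rho −0.83) and climb in Baf180 knockdown (rho 0.50), and with the offsets they do not follow it (0.02 and −0.21).

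Direct comparison of the knockdowns, which share libraries with one another, had Chac1, Gdf15 and Xbp1 lower in Baf250A than in either other knockdown. Of 18 ATF4 arm members 4 were called lower and 0 higher in Baf250A than in Brd9 knockdown (15.0% of all genes lower, 10.0% higher, 25.0% in all), and the counts were 4 and 0 at an unadjusted p below 0.05 and by DESeq2. They were Chac1 (−1.68, SE 0.18, adjusted p = 0.000368, offsets −1.52), Gdf15 (−2.18, SE 0.25, adjusted p = 0.000457, offsets −1.99), Trib3 (−1.21, SE 0.32, adjusted p = 0.0227, offsets −1.0) and Vldlr (−1.40, SE 0.35, adjusted p = 0.0187, offsets −1.40). Chac1 and Gdf15 were called with each library left out. Trib3 stood at −0.77 without Brd9 replicate 2 (adjusted p = 0.162) and was not called without Baf250A replicate 2. Vldlr stood at −0.87 without Brd9 replicate 1 (adjusted p = 0.155) and was not called without either Baf250A library. Of the ER arm 3 members were called lower and 0 higher, with 5 and 0 at an unadjusted p below 0.05 and 2 and 0 by DESeq2. Xbp1 (−0.88, SE 0.12, adjusted p = 0.00131, offsets −0.75) was called with each library left out. Eif2ak3 (−0.74, adjusted p = 0.0228, offsets −0.55) stood at −0.49 without Brd9 replicate 1, and Syvn1 (−0.48, adjusted p = 0.0455, offsets −0.25) at −0.30 without Brd9 replicate 2. With the offsets 0 ATF4 arm members were higher and 5 lower, and 1 ER arm member was higher and 7 lower, beside 21.6% of all genes lower and 42.7% in all.

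Between Baf250A and Baf180 knockdown 10 ATF4 arm members were called lower in Baf250A and 1 higher, and 9 ER arm members lower and 5 higher. The shares called either way, 61.1% and 66.7%, stand beside 62.5% of all genes (31.7% lower and 30.8% higher). With the offsets 11 members of each arm were called, 6 and 9 of them lower, beside 28.0% of all genes lower and 55.1% in all. Single differences were large. Gdf15 was 9.50-fold lower in Baf250A (log2 −3.25, SE 0.26, adjusted p = 4.64e-05, offsets −2.30), Chac1 4.57-fold lower (−2.19, SE 0.19, adjusted p = 5.73e-05, offsets −1.37) and Xbp1 2.60-fold lower (−1.38, SE 0.12, adjusted p = 7.3e-05, offsets −0.93). Asns (−0.96, SE 0.17, adjusted p = 0.00111, offsets −1.08) and Herpud1 (−1.16, SE 0.14, adjusted p = 0.00021, offsets −0.68) were also lower. All 5 were called with each library left out. In the other direction Hsp90b1 was the 1 ER arm member called higher in both fits, and was also called with each library left out. It had 631 and 819 CPM in Baf250A against 294 and 303 in Baf180 libraries. Canx, Cebpg and Ddit4 were called in opposite directions by the 2 fits, at 0.65, 0.72 and −0.46 with TMM and −0.70, −0.42 and 0.38 with the offsets.

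Between Brd9 and Baf180 knockdown 7 ATF4 arm and 12 ER arm members were called with TMM, 38.9% and 57.1% beside 49.6% of all genes. In Brd9 relative to Baf180, 1 ATF4 arm member was higher and 6 lower with TMM, and the direction turned with the offsets to 4 higher and 1 lower. The ER arm had 6 higher and 6 lower with TMM, and 1 higher and 6 lower with the offsets, beside 15.7% of all genes higher and 32.2% in all. Asns (−0.67, SE 0.16, adjusted p = 0.0115, offsets −0.81), Calr (−0.48, SE 0.16, adjusted p = 0.032, offsets −0.45) and Herpud1 (−0.83, SE 0.13, adjusted p = 0.00426, offsets −0.47) were lower in Brd9 in both fits. Herpud1 was called with each library left out, while Asns and Calr were not called without Brd9 replicate 1 or Baf180 replicate 1 (adjusted p up to 0.0948 and 0.19). For Gdf15 the TMM difference of −1.06 (SE 0.23, adjusted p = 0.00822) was not called with the offsets (−0.31, adjusted p = 0.07).

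With TMM a wider list of 81 further genes of both pathways, of which 79 were tested, gave 6 higher and 23 lower in Baf250A, 14 higher and 9 lower in Baf180, and 2 higher and 3 lower in Brd9 knockdown. These are 36.7%, 29.1% and 6.33% of the genes tested, beside 29.5%, 34.2% and 10.0% of all genes. With the offsets 28.2% of all genes were called in Brd9 knockdown. There 8 of 13 genes for aminoacyl-tRNA synthetases and tRNA export were called, 7 of 12 amino acid and folate genes and 3 of 6 signalling targets. Genes for the input to ATF4 had 3 of 10, and relatives and processing of ATF6 had 2 of 6. On the ER side these were 2 of 11 translocation, 1 of 14 folding and 1 of 7 degradation genes. In Baf250A knockdown, where 14.0% of all genes were lower and 15.5% higher, 6 of 13 genes for aminoacyl-tRNA synthetases and tRNA export were lower and 0 higher (8 and 0 at an unadjusted p below 0.05, 6 and 0 by DESeq2), with a median of −0.37, among them Aars (−0.92, offsets −0.61) and Cars (−0.63, offsets −0.40), alanyl- and cysteinyl-tRNA synthetase. Without Baf250A replicate 2 neither was called (adjusted p up to 0.0763 and 0.0954). The list had 5 lower and 0 higher in Baf180 knockdown, with the same counts at an unadjusted p below 0.05 and by DESeq2. In Brd9 knockdown edgeR with TMM called none (8 lower at an unadjusted p below 0.05, 1 by DESeq2). The offsets called 8 of these genes lower and 0 higher in Brd9 knockdown, and 7 lower and 0 higher in Baf250A knockdown. Of 12 amino acid and folate genes 6 were lower and 1 higher with TMM in Baf250A, 1 lower and 3 higher in Baf180 and 2 lower in Brd9 knockdown. Aldh1l2, a mitochondrial folate dehydrogenase, had 43.3 and 35.5 CPM in scramble, 51.3 and 42.1 in Brd9, 14.0 and 18.4 in Baf250A and 9.04 and 12.4 in Baf180, and fell in Baf250A (−1.28, SE 0.22, adjusted p = 0.0034, offsets −1.52) and Baf180 knockdown (−1.88, SE 0.22, adjusted p = 0.000609, offsets −1.63). Atf3, a transcription factor induced by ATF4, had 7.69 and 8.32 CPM in scramble, 4.22 and 3.98 in Brd9, 1.66 and 0.775 in Baf250A and 0.696 and 0.873 in Baf180. It fell in Baf250A (−2.71, SE 0.33, adjusted p = 0.000607, offsets −2.50) and Baf180 knockdown (−3.34, SE 0.35, adjusted p = 0.000318, offsets −3.49). All 4 of these calls of Aldh1l2 and Atf3 were made with each library left out. The cystine transporter Slc7a11 fell in Baf250A knockdown (−1.06, adjusted p = 0.00889, offsets −2.02), and the neutral amino acid transporters Slc1a4 rose in Baf180 (0.92, adjusted p = 0.00127, offsets 0.73) and Slc1a5 fell in Brd9 knockdown (−1.05, adjusted p = 0.0183, offsets −0.88). Of 6 signalling targets, Atf3 included, 4 were lower in Baf250A, 1 lower and 1 higher in Baf180 and 1 lower in Brd9 knockdown, the last being Stc2, a secreted glycoprotein (−1.09, adjusted p = 0.02, offsets −0.97). The calls of Slc7a11, Slc1a5 and Stc2 were lost without scramble replicate 1, among others (adjusted p up to 0.0693, 0.15 and 0.18).

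On the ER side of the wider list, 4 of 14 folding genes were higher and 1 lower in Baf180 knockdown, and 2 higher and 1 lower in Baf250A, 35.7% and 21.4% beside 34.2% and 29.5% of all genes. Fkbp14, a prolyl isomerase that acts on collagens, had 13.1 and 11.2 CPM in scramble, 33.4 and 27.1 in Brd9, 15.6 and 20 in Baf250A and 24.8 and 30.3 in Baf180. It rose in Brd9 (1.31, SE 0.20, adjusted p = 0.00495, offsets 1.08) and Baf180 knockdown (1.18, SE 0.20, adjusted p = 0.00354, offsets 1.72), and the Brd9 call was lost without scramble replicate 2 (adjusted p = 0.0741). Of 7 degradation genes 3 were lower and 1 higher in Baf250A knockdown, with Edem2, a mannosidase-like relative of Edem1, at −1.06 (SE 0.19, adjusted p = 0.00449, offsets −0.82). In Baf180 knockdown 2 were higher, and in Brd9 knockdown edgeR with TMM called none (1 higher at an unadjusted p below 0.05). DESeq2 and the offsets each called 1 higher there. Of 11 translocation and secretion genes 2 were higher and 1 lower in Baf250A, calls that the offsets ended, and 1 was higher in Baf180 knockdown. In Brd9 knockdown none was called by edgeR with TMM or by DESeq2, with 1 higher and 3 lower in that edgeR fit at an unadjusted p below 0.05. With the offsets 2 were lower and 0 higher. Among 10 kinases, eIF2 and eIF2B genes and a phosphatase subunit that set the input to ATF4, none was called in Brd9 or Baf250A knockdown by edgeR with TMM. At an unadjusted p below 0.05 there were 1 higher and 2 lower in Brd9 and 2 higher and 1 lower in Baf250A knockdown, and DESeq2 called 1 lower in Brd9 and 2 higher and 1 lower in Baf250A knockdown. In Baf180 knockdown Eif2s1, the alpha subunit of eIF2, was lower (−0.83, adjusted p = 0.00994), which the offsets ended (−0.13).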

How the data were processed

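RNA was measured in 8 libraries of C2C12 cells, 2 for each of 4 shRNAs. Estimated counts were deposited for each gene, not normalized by the authors, beside a gene length per the file headers. Per the submitters' processing notes the build was mm10 and the tools included RSEM, Bowtie2, HISAT2, Cufflinks, StringTie and DESeq2. Their roles and versions are not stated there. Whether counting used strand is not given either, so overlapping genes are uncertain. Groups come from sample titles, which the count columns repeat. Of the 24573 gene IDs, 24479 matched a RefSeq table of GRCm38 (mm10) by ID and 9 by accession.

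Counts were rounded, filtered by filterByExpr (12420 genes) and scaled by TMM. All 8 libraries entered 1 quasi-likelihood fit in edgeR 4.0.16 (R 4.3.3) with 4 groups, and p-values were adjusted by Benjamini-Hochberg over all genes in each of 6 comparisons. Each SE was taken as |log2 fold change| over √F. CPM use TMM-adjusted library sizes. Offsets came from loess curves (span 0.3) of each library's log2 deviation on transcript GC content (GENCODE M21, found for 98.95% of tested genes) and on log2 length. Alternatives were DESeq2 1.42.0, scaling by RLE or upper quartile, testing without a filter, a fit to only the 4 libraries compared, a block for replicate number, and each library left out, where the lone library of a group is assumed to vary like the other groups. The procedure was checked on simulated counts. These held no trend with GC content or length and had the same spread in every group, so they do not bear on either. Values per library are given for members called against scramble in either fit, up to 8 per arm and comparison, and for regulators and sensors, and from each wider list up to 2 called genes of lowest p per comparison. A few others (Hspa5 among them) were added after their values were seen. The members, lists and tests were chosen with earlier results of these data known.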

Additional observations from a re-analysis of the deposited data

How the results depend on the processing

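With 2 libraries a group, counts of called members depended on single libraries. Chi-square per degree of freedom between the 2 libraries of a group was 8.68 in scramble, 29.2 in Brd9, 29 in Baf250A and 36.2 in Baf180. Without a scramble library the spread comes from the other groups, so a call can be lost at an unchanged fold change. Asns in Baf250A knockdown stayed at −0.69 without either scramble library, while Gdf15 went from −0.88 to −0.73 or −1.01. With 1 library left out, ATF4 arm calls against scramble ranged from 0 to 5 (Brd9), 2 to 7 (Baf250A) and 2 to 5 (Baf180), and ER arm calls from 0 to 1, 1 to 5 and 0 to 7. Between knockdowns the ATF4 arm ranges were 2 to 3 (Baf250A versus Brd9), 6 to 10 (Baf250A versus Baf180) and 0 to 7 (Brd9 versus Baf180), and the ER arm ranges 1 to 2, 8 to 12 and 2 to 13. Each count of 0 arose in edgeR without a scramble library, Brd9 replicate 1 or Baf180 replicate 1, with 1 to 8 members at an unadjusted p below 0.05.

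With the GC and length offsets ATF4 arm calls against scramble became 11 (Brd9), 13 (Baf250A) and 11 (Baf180), and ER arm calls 4 (Brd9) and 11 (Baf180), with 8 for Baf250A versus Brd9 and 7 for Brd9 versus Baf180. In Brd9 knockdown the ATF4 arm had 8 calls with the 4 libraries alone, 9 by DESeq2 and 8 with no filter, and the ER arm 3, 2 and 2. The ER arm had 10 calls in Baf180 knockdown with the 4 libraries alone. RLE and upper-quartile scaling moved no total of higher and lower calls by over 1.5 times. By direction, upper-quartile scaling gave 5 lower ER arm calls in place of 2 in Baf180 knockdown, and 3 in place of 6 for Brd9 versus Baf180.

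The replicate number as a block left 2 ATF4 arm and 0 ER arm calls in Brd9 knockdown (edgeR; 4 ER arm members at an unadjusted p below 0.05, 2 called by DESeq2 without the block). Block and offsets together gave 10 and 3 there, 13 in the ATF4 arm of Baf250A knockdown, and in the ER arm 5 for Baf250A versus Brd9 and 7 for Brd9 versus Baf180. Same-numbered libraries correlated in their deviations at −0.05, 0.12 and 0.02 against scramble, and at −0.47, 0.46 and −0.48 between knockdowns. The labels do not say whether libraries of the same number share more than that number, and this was not tested.

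Of 83 calls of a member in a comparison, 48 stood with the offsets, 22 were lost and 13 changed sign, the last with and without the block. For Baf250A versus Baf180 these were Canx (−0.70, −0.69 with the block), Cebpg (−0.42 in both), Ddit3 (0.13), Sesn2 (0.04), Dnajb9 (−0.27) and Ddit4 (0.38). For Brd9 versus Baf180 they were Canx (−0.22), Atf6 (−0.18, −0.19 with the block), Sesn2 (0.06), Sdf2l1 (0.03), Chac1 (0.14), Syvn1 (0.12, 0.13 with the block) and Creld2 (0.02). None was a comparison with scramble, and the cause was not tested.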

Other observations

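Of 6 genes for relatives and processing of ATF6, 3 were called higher in Baf180 (17.2% of all genes), 2 lower in Baf250A (14.0%) and 1 higher in Brd9 knockdown (6.45%). Atf6b, a close relative of ATF6, was called in none of these (−0.25, −0.22 and 0.47 in Brd9, Baf250A and Baf180 knockdown, offsets −0.10, 0.20 and −0.05). Creb3l1, a membrane-bound transcription factor of secretory cells also known as OASIS, had 318 and 283 CPM in scramble, 427 and 540 in Brd9, 288 and 240 in Baf250A and 821 and 698 in Baf180 libraries. It rose in Baf180 (log2 fold change 1.34, SE 0.17, adjusted p = 0.000823, offsets 0.85) and Brd9 knockdown (0.68, SE 0.17, adjusted p = 0.0339, offsets 0.85). The Brd9 call was lost without either scramble library or Brd9 replicate 2 (adjusted p up to 0.24). Its relative Creb3l2 had 39.3 and 42.7 CPM in scramble, 50.3 and 49.2 in Brd9, 27.4 and 27.9 in Baf250A and 65.8 and 73.8 in Baf180. It rose in Baf180 (0.77, SE 0.13, adjusted p = 0.00348, offsets 0.81) and fell in Baf250A knockdown (−0.57, SE 0.13, adjusted p = 0.0139, offsets −0.52), and the latter call was lost without any 1 library (up to 0.115). For Creb3l2 the Baf250A libraries lay below, and the Baf180 libraries above, all others.

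Wfs1, the ER membrane protein wolframin, had 50.4 and 48.5 CPM in scramble, 32.1 and 41.1 in Brd9, 19.9 and 15.4 in Baf250A and 73.0 and 56.5 in Baf180. It fell in Baf250A knockdown by 1.49 on the log2 scale (SE 0.20, adjusted p = 0.00104, offsets −1.13), a call made with each library left out.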
